A study of Mus musculus with 30 samples.

Results

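Ighv5-4, Ighv2-3 and Ighv5-6 are 3 functional heavy-chain V segments near the D end of the mouse Igh locus, the 3 members described here of 151 V segments found in the bone marrow alignments and 131 in mm9. They were chosen by position, as the V segments within a 40 kb window on chromosome 12 that holds no other segment. No measured value entered this rule, though earlier results of these data were known when the members were chosen. The window held 26592 of 1139295 bone marrow junctions and 2912 of 935698 v-Abl junctions, of which 26526 and 2912 lay in the 3 segments. In mm9 the exons lie on the minus strand, with Ighv5-4 at chr12:114835657-114836116, Ighv2-3 at chr12:114849395-114849828 and Ighv5-6 at chr12:114863717-114864167, and the end that recombines is the lower coordinate of each V exon. These ends lie 168.88 kb, 182.62 kb and 196.94 kb from JH4.

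Heavy-chain genes are assembled in pro-B cells in 2 steps, a D segment to a JH segment and then a V segment to the DJH join, by the RAG recombinase, which cuts at a recombination signal next to each segment. The signal is made of a heptamer, a spacer and a nonamer, and V segments carry the long spacer form. Cohesin extrudes chromatin loops that bring V segments past the RAG-bound recombination centre at JH, and CTCF-binding elements (CBEs) hold such loops back. IGCR1, the intergenic control region 1 between the V and D segments, carries a pair of these elements, CBE1 and CBE2, and in normal cells keeps the V segments nearest to D from joining too early or too often. WAPL unloads cohesin from chromatin, so that its loss lets loops grow longer. Many V segments near the D end have a CTCF-binding site directly past their recombination signal.

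Junctions from a JH4 bait were sequenced by HTGTS-V(D)J-seq, a linear amplification method that captures whatever DNA has joined the bait, in 30 libraries of 10 groups with 3 replicates each. The 18 bone marrow libraries came from B220+IgM-CD43+ sorted pro-B cells of 129SV mice, whose ages the labels do not give, with 6 IGCR1 genotypes: WT, CBE1-/- (CBE1mut), CBE2-/- (CBE2mut), CBE1&2-/- (CBE12mut), CBE1inv/inv (CBE1inv) and CBE2inv/inv (CBE2inv). The 12 v-Abl libraries came from Abelson-transformed C57BL/6 pro-B cells, all RAG1-/-, Emu-Bcl2, with a WAPL degron, a single Igh and RAG1/2 supplied by retrovirus, with that genotype alone (WT) or with the 3IghCBEs deletion (3CBEdel), which removes the CBE array past the 3' end of the locus. All v-Abl cells were arrested with 3 µM STI-571 for 4 days, and the treated ones also received 150 µM IAA, the auxin that triggers a degron, with 2 µg/mL doxycycline for the last 3 days. WT in these cells therefore carries the degron and the transgene too, and the labels do not say whether a v-Abl genotype is 1 clone or several. The labels do not say whether replicates came from separate animals or cultures, so p-values measure only the spread between these libraries, which may be technical.

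The recombination signals of the 3 members and of their neighbours are shown because Ighv5-4 and Ighv5-6, at different distances from D, carry the same signal. Each sequence runs 5' to 3' from the last coding bases through the heptamer and the nonamer, both in capitals, to a CTCF-like core, also in capitals where it was found (Ighv2-4 lacks it), and was read from the C57BL/6 genome (mm9, minus strand). Order is by distance from D. The 3 members stand in the middle:
Ighv5-1: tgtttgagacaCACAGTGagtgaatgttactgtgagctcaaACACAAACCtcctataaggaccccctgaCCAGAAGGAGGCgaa
Ighv5-2: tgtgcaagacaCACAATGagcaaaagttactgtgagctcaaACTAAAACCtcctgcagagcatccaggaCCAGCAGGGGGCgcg
Ighv2-2: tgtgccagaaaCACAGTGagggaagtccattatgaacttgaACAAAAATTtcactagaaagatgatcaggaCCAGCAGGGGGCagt
Ighv5-4: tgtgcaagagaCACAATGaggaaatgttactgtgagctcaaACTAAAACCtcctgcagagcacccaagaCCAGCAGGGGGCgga
Ighv2-3: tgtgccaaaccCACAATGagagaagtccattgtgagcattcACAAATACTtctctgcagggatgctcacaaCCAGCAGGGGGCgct
Ighv5-6: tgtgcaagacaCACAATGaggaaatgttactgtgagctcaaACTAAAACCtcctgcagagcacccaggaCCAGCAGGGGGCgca
Ighv2-4: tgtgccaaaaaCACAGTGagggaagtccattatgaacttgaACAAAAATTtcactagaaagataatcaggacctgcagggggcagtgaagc
Ighv5-9: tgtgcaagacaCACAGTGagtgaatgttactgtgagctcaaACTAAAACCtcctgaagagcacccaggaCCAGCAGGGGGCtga
Ighv5-12: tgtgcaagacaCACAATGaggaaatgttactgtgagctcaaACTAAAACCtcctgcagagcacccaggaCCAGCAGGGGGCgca

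Ighv5-4 and Ighv5-6 carry the same 39-base signal, base for base, and share it with Ighv5-12, which lies farther from D. Against the consensus heptamer CACAGTG each of these has 1 mismatch, and against the consensus nonamer ACAAAAACC it also has 1. The signal of Ighv2-3 has 1 mismatch in the heptamer and 2 in the nonamer. Of the 102 V segments whose heptamer starts with CAC, 31 had as few mismatches as Ighv5-4 and 41 as few as Ighv2-3. The core searched in both strands, CCANNAGNNGGC, was chosen after these sequences had been seen, and the shorter core first planned, CNAGNNGGC, was in none of the 3 members and in 5 of 131 V segments (3.82%). In both strands, within 150 bases on each side of the coding end, the chosen core was in 29 of 131 V segments (22.1%). On the coding strand alone it stood shortly past the signal in 28 of 131 (21.4%), in 10 of the 12 nearest to D and in all 3 members. It started 58 bases after the coding end of Ighv5-4 and of Ighv5-6 and 60 bases after that of Ighv2-3. A match to such letters is a description and not a measured binding site.

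The coding sequences set the limit on telling the members apart. Over the last 290 coding bases Ighv5-4 and Ighv5-6 were 95.5% identical, while Ighv2-3, of another family, was 88.6% identical to Ighv2-2. The deposited alignment decided which segment received a read. In the bone marrow reads, which are from 129 mice, Ighv5-4 differed from mm9 at 5 of the last 120 coding bases (A12G, A16G, C22G, C77A and A78G, with mm9 first and positions counted from 1 at the 5' end of the printed stretch), while Ighv2-3 differed at 0 of 118 and Ighv5-6 at 0 of 120. The end of the Ighv5-4 exon is shown in both strains, with the 5 differing bases in capitals, because it is the member whose coding sequence differs between the bone marrow and the v-Abl cells. The mm9 stretch is chr12:114835657-114835776.
Ighv5-4, C57BL/6: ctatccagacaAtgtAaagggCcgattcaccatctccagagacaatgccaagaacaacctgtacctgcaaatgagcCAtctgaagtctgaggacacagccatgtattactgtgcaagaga
Ighv5-4, 129: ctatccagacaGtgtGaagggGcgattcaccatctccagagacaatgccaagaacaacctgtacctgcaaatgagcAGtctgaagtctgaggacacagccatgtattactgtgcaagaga
The recombination signals of the 129 alleles were not analysed here.

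Bone marrow libraries held 11105 to 98682 junctions and v-Abl libraries 13180 to 175957, and read sequences that repeat made up 9.26% to 52.4% of a library. Run codes carried in the deposited names put the 6 CBE2mut and CBE2inv libraries apart from the other 12 bone marrow libraries, and the first group was also shallower, at 11105 to 41433 junctions. Between 64.3% and 71.1% of the members' joins were unique in group means there, against 82.4% to 88.0% in the other genotypes. When CBE2mut or CBE2inv is set against another genotype, run code and genotype cannot be told apart. With each read sequence counted once, all per-junction differences of CBE2mut and CBE2inv from WT given below kept their sign. Comparisons with WT share the 3 WT libraries.

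In WT bone marrow the 3 members took rank 3 (Ighv5-4), 4 (Ighv2-3) and 7 (Ighv5-6) of 151 V segments by mean level, and their order of level followed the order along the chromosome from D. Ighv5-4 had 1048, 1389 and 1039 junctions per 100000 junctions of the library in replicates 1 to 3, with a mean of 1159 ± 199 (SD, n = 3). Ighv2-3 had 833, 925 and 824, with a mean of 861 ± 55.5 (SD, n = 3). Ighv5-6 had 689, 669 and 562, with a mean of 640 ± 68.4 (SD, n = 3). Within each WT library Ighv5-4 was above Ighv2-3 and Ighv2-3 above Ighv5-6, and over the 3 libraries the ranges of the 3 segments did not overlap. Together the members took 8.0% ± 0.77 of V joins (SD, n = 3). On the far side the next segments of these families were much rarer, with Ighv2-4 at 66.9 ± 12.4 and Ighv5-9 at 76.8 ± 17.9 junctions per 100000 (SD, n = 3), while Ighv5-12 was at 526 ± 130.

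**Figure D1:**
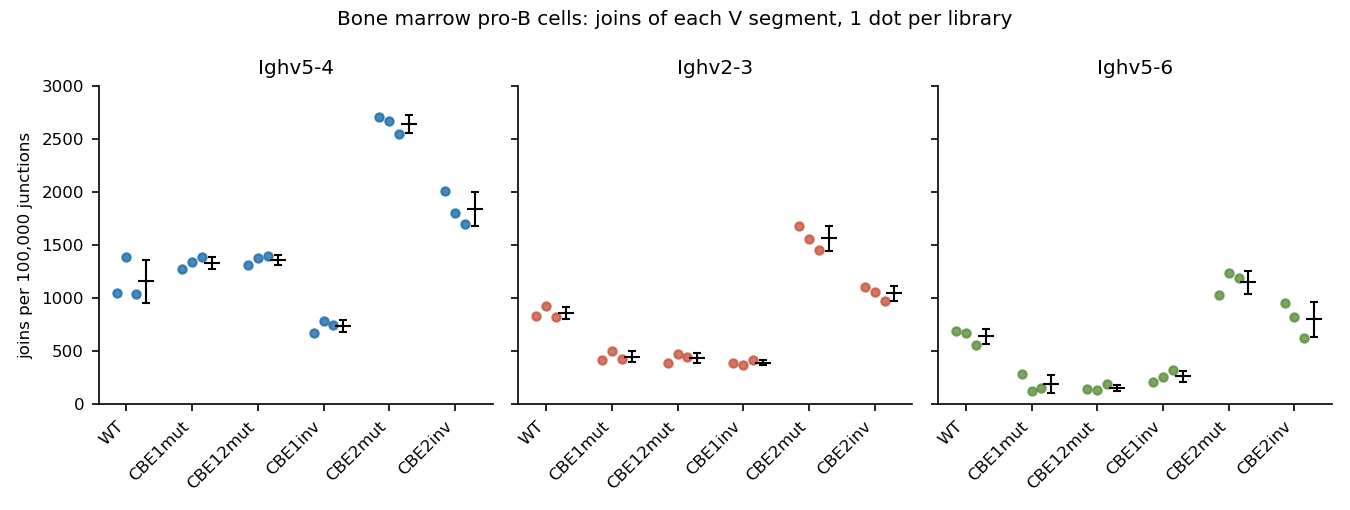
Junctions per 100000 junctions of the library for Ighv5-4, Ighv2-3 and Ighv5-6 in the 18 bone marrow libraries, with 1 point per library and the mean and SD of each genotype. Ighv5-4 stayed near its WT mean of 1159 in CBE12mut (1363) and CBE1mut (1335), where Ighv5-6 was at 156 and 188 against 640 in WT, and all 3 segments were highest in CBE2mut.

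Loss of both IGCR1 elements left the member nearest to D at its level and lowered the farther ones. Ighv5-4 had 1310, 1378 and 1401 junctions per 100000 in the CBE12mut libraries (mean 1363 ± 46.9, SD, n = 3), a range that overlapped that of WT. Ighv2-3 had 387, 477 and 448 (438 ± 45.9) and Ighv5-6 had 146, 135 and 189 (156 ± 28.5), both below every WT library. In the fit across all segments (limma voom with Benjamini-Hochberg adjustment over the 167 segments tested, threshold 0.05, log2 scale) Ighv2-3 fell by 0.97 (SE 0.18, adjusted p = 6.07e-06) and Ighv5-6 fell by 2.01 (SE 0.254, adjusted p = 3.78e-09). The difference of 0.27 (SE 0.144, adjusted p = 0.0709) for Ighv5-4 did not pass. In this comparison 87.4% of all segments fell and 6 rose, so that a fall of 2 of 3 members is near the background. The median segment was 2.04 lower. With libraries scaled by the median ratio over segments with joins in every library (scaled to the median segment below), Ighv5-4 was 2.21 higher and Ighv2-3 turned to 0.98 higher. Ighv5-6 was then close to level (-0.06, adjusted p = 0.908). The call for Ighv5-4 per junction moved across the threshold without WT replicate 2 (0.39, adjusted p = 0.0198) and with each read sequence counted once (adjusted p = 0.0412).

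Loss of CBE1 alone gave a like picture of the members. Ighv5-4 had 1277, 1338 and 1389 junctions per 100000 (1335 ± 56.0, SD, n = 3) and Ighv2-3 had 416, 506 and 428 (450 ± 49.2). Ighv5-6 had 285, 128 and 150 (188 ± 85.0), with replicate 1 the highest. Ighv5-4 overlapped WT, and the other 2 segments lay below every WT library. Ighv2-3 fell by 0.93 (SE 0.181, adjusted p = 4.73e-05) and Ighv5-6 fell by 1.85 (SE 0.251, adjusted p = 3.79e-08), among 60.5% of all 167 segments that fell in this comparison (limma voom). Ighv5-4 differed by 0.24 (SE 0.146, adjusted p = 0.137). Here the median segment was 1.02 lower. With the same median scaling as for CBE12mut, Ighv5-4 was 1.21 higher and Ighv2-3 was level (0.06). The fall of Ighv5-6 (-0.85, adjusted p = 0.0553) did not pass with it. Between CBE12mut and CBE1mut 57.5% of segments were called in either direction, yet none of the 3 members was: the differences were 0.03 for Ighv5-4 (SE 0.141, adjusted p = 0.848), -0.04 for Ighv2-3 (SE 0.197, adjusted p = 0.852) and -0.17 for Ighv5-6 (SE 0.297, adjusted p = 0.627), with unadjusted p of 0.823, 0.837 and 0.577. Scaled to the median segment, Ighv5-4 (0.99) and Ighv2-3 (0.92) were instead higher in CBE12mut, both with adjusted p = 0.00175.

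Inversion of CBE1 lowered all 3 members, while the median segment moved little. Ighv5-4 had 676, 786 and 751 junctions per 100000 (738 ± 56.5, SD, n = 3), below every WT library. Ighv2-3 had 393, 371 and 418 (394 ± 23.5) and Ighv5-6 had 213, 255 and 322 (264 ± 54.8), also below WT in all libraries. The falls were 0.61 (SE 0.156, adjusted p = 0.00535), 1.12 (SE 0.178, adjusted p = 4.11e-06) and 1.28 (SE 0.226, adjusted p = 2.66e-05, limma voom), so that 3 of 3 members fell where 6.59% of 167 segments did and the median segment was 0.18 lower. The fall of Ighv5-4 did not pass without WT replicate 2 (-0.50, adjusted p = 0.065) or scaled to the median segment (-0.46, adjusted p = 0.358). Set directly against CBE1mut, CBE1inv had less Ighv5-4 (-0.85, SE 0.153, adjusted p = 1.41e-05), and 2.99% of segments fell in that comparison, while the other 2 members did not pass (-0.19 and adjusted p = 0.380 for Ighv2-3, 0.57 and adjusted p = 0.0788 for Ighv5-6). Without CBE1mut replicate 1, in which Ighv5-6 was highest, the Ighv5-6 difference of 0.91 passed (adjusted p = 0.0177).

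The CBE2 genotypes had the highest levels of all 3 members, although the difference from WT in genotype cannot be told apart from the run code. In CBE2mut Ighv5-4 had 2708, 2674 and 2546 junctions per 100000 (2643 ± 85.3, SD, n = 3), Ighv2-3 had 1682, 1558 and 1453 (1564 ± 114) and Ighv5-6 had 1026, 1234 and 1187 (1149 ± 109). Every one of these was above every WT library. The rises were 1.22 (SE 0.155, adjusted p = 2.53e-08), 0.86 (SE 0.174, adjusted p = 0.000293) and 0.84 (SE 0.214, adjusted p = 0.00429), and 3 of 3 members rose where 5.39% of 167 segments did. In CBE2inv Ighv5-4 had 2012, 1801 and 1701 (1838 ± 159), Ighv2-3 had 1108, 1057 and 970 (1045 ± 69.8) and Ighv5-6 had 958, 824 and 630 (804 ± 165). Here Ighv5-4 rose by 0.71 (SE 0.167, adjusted p = 0.00385) where 2.4% of segments rose, and it did not pass scaled to the median segment (0.60, adjusted p = 0.161). Ighv2-3 differed by 0.30 (SE 0.189, adjusted p = 0.417) and Ighv5-6 by 0.35 (SE 0.232, adjusted p = 0.429), though the Ighv2-3 libraries did not overlap those of WT.

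The CBE2 genotypes share a run code, so their comparison with each other does not carry that limit. CBE2inv was below CBE2mut in the means of all 3 members, but none passed in the limma voom fit. The differences were -0.51 for Ighv5-4 (SE 0.172, adjusted p = 0.0987), -0.56 for Ighv2-3 (SE 0.200, adjusted p = 0.101) and -0.49 for Ighv5-6 (SE 0.245, adjusted p = 0.279), with unadjusted p of 0.00463, 0.00724 and 0.0535. In all, 3.59% of segments were called in either direction. The limma trend fit called Ighv5-4 (-0.53, adjusted p = 0.0361), as did the fit without CBE2mut replicate 1 (-0.49, adjusted p = 0.0460). Scaled to the median segment, all 3 passed (-0.94, -0.99 and -0.92). Against CBE2mut, CBE12mut had less of all 3 members, by 0.95 for Ighv5-4, 1.83 for Ighv2-3 and 2.86 for Ighv5-6 (adjusted p = 7.24e-07, 2.44e-11 and 8.21e-13), in a comparison where 65.3% of segments fell. Scaled to the median segment, Ighv5-4 turned to 0.67 higher and Ighv2-3 did not pass (-0.22, adjusted p = 0.552).

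The members formed a step in a gradient along the D-proximal V segments. In CBE12mut the 3 segments on their D side rose steeply: Ighv5-1 from 168 to 6229 junctions per 100000, Ighv5-2 from 3588 to 63233 and Ighv2-2 from 2013 to 6913. Ighv5-4, the next segment outward, went from 1159 to 1363, Ighv2-3 from 861 to 438 and Ighv5-6 from 640 to 156. Past the members, Ighv2-4 went from 66.9 to 37.6, Ighv5-9 from 76.8 to 25.6 and Ighv5-12, which has the signal of Ighv5-4 and Ighv5-6 exactly, from 526 to 106. Among these 9 segments, going outward from D, the sign of the difference per junction changed once, between Ighv5-4 and Ighv2-3. This place holds per junction only: scaled to the median segment, Ighv5-4 and Ighv2-3 were both higher (2.21 and 0.98). In CBE1mut the change of sign fell at the same place, and in CBE1inv it fell 1 segment nearer to D, between Ighv2-2 (0.83) and Ighv5-4 (-0.61). The Ighv5-4 differences in CBE12mut and CBE1mut did not pass the threshold, so the place of the change there rests on values that were not called.

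**Figure D2:**
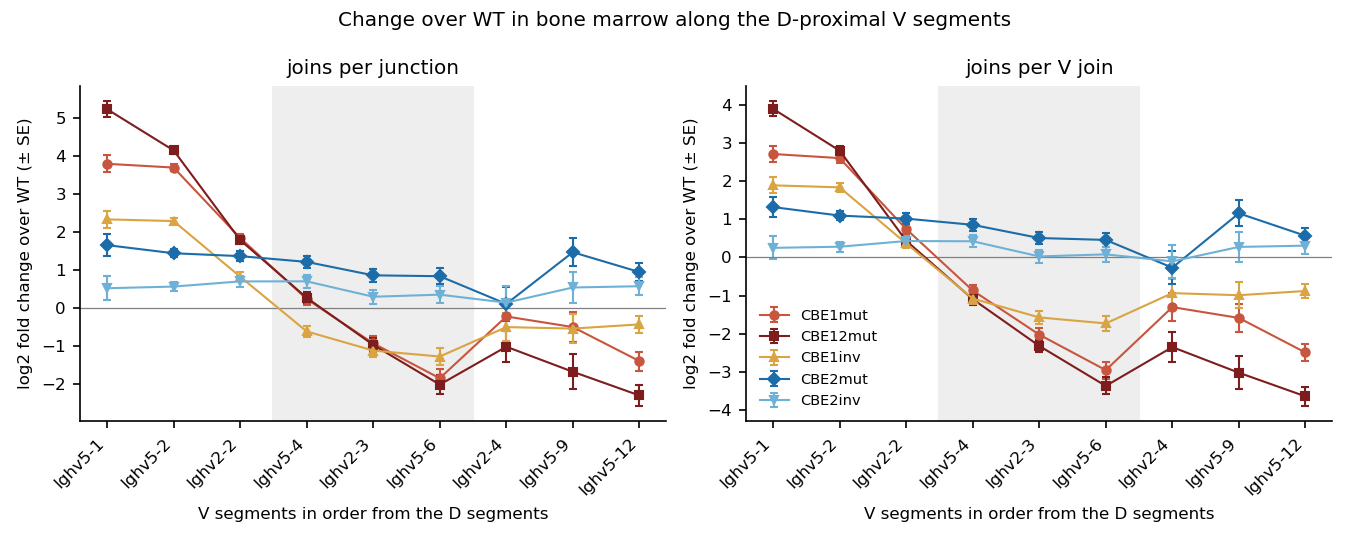
Log2 difference from WT (limma voom, points with SE) of the 9 V segments from Ighv5-1 to Ighv5-12, evenly spaced in their order from the D segments, for the 5 mutant genotypes, with library junctions (left) or V joins (right) as library size and the 3 members on grey. On the left, CBE12mut and CBE1mut pass from rises of the 3 nearest segments through 0.27 and 0.24 at Ighv5-4 to -2.01 and -1.85 at Ighv5-6, while in CBE2mut all 3 members lie above 0.

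The share that Ighv5-4 took among the members changed with the genotype. The ratio of Ighv5-4 to Ighv5-6 junctions, added after the levels had been seen, does not depend on how a library is scaled. It was 1.52, 2.08 and 1.85 in the WT libraries, 8.99, 10.2 and 7.43 in CBE12mut, and 4.48, 10.5 and 9.23 in CBE1mut. In CBE1inv it was 3.17, 3.08 and 2.33, in CBE2inv 2.10, 2.18 and 2.70 and in CBE2mut 2.64, 2.17 and 2.14. No library of any of the 5 mutant genotypes overlapped WT. With each read sequence counted once, CBE2mut did overlap WT (2.48, 2.13 and 1.83 against 1.53, 2.03 and 1.87), and the other 4 genotypes did not. In the full numbers CBE12mut did not overlap CBE1inv, CBE2inv or CBE2mut. An exact two-sided permutation test of 3 against 3 libraries cannot go below 0.1, so no single ratio can pass 0.05. Ighv5-4 over Ighv2-3 was 1.34 ± 0.14 in WT, 3.13 ± 0.248 in CBE12mut and 2.99 ± 0.31 in CBE1mut (SD, n = 3), again without overlap.

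Taken as a share of V joins, which leaves out how often a cell reached the V step, the members lost ground in 3 genotypes. The V share of V plus D joins was 34.4% in WT, 86.7% in CBE12mut, 72.6% in CBE1mut and 47.2% in CBE1inv (means of 3). It was 46.1% in CBE2mut and 44.8% in CBE2inv, both without overlap with WT, where run code and genotype cannot be told apart. Ighv5-4 was 3.48% ± 0.556 of V joins in WT, 1.61% ± 0.0842 in CBE12mut, 1.88% ± 0.0709 in CBE1mut and 1.62% ± 0.0847 in CBE1inv (SD, n = 3). Ighv2-3 was 2.59% ± 0.247 in WT, 0.517% ± 0.0577 in CBE12mut, 0.634% ± 0.0612 in CBE1mut and 0.868% ± 0.0514 in CBE1inv. Ighv5-6 was 1.92% ± 0.0203 in WT, 0.185% ± 0.0378 in CBE12mut, 0.266% ± 0.123 in CBE1mut and 0.579% ± 0.103 in CBE1inv. In these 3 genotypes each member was below WT in all libraries, and among the 3 members the loss grew with the distance from D. Past the members this order did not hold throughout. Ighv5-12, farther out, was at 1.19%, 1.95% and 1.61% of V joins in WT and at 0.78%, 0.78% and 0.92% in CBE1inv. In CBE12mut it was at 0.099%, 0.086% and 0.19%. In the CBE2 genotypes Ighv5-4 was 6.37% ± 1.00 (CBE2mut) and 4.62% ± 0.607 (CBE2inv), above every WT library. With each read sequence counted once the CBE2inv range reached down to 3.77% and overlapped WT, whose highest library was at 3.96%. Ighv2-3 was 3.75% ± 0.441 and Ighv5-6 2.81% ± 0.72 in CBE2mut, above every WT library, and 2.62% ± 0.273 and 2.02% ± 0.488 in CBE2inv, where both overlapped WT.

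In the fit with V joins as library size (limma voom, 143 V segments) all 3 members fell in CBE12mut, by 1.09 for Ighv5-4, 2.32 for Ighv2-3 and 3.37 for Ighv5-6 (adjusted p = 1.15e-12, 3.28e-32 and 3.63e-36), as did 97.9% of V segments, at a median of -3.45. In CBE1mut they fell by 0.87, 2.03 and 2.96 (adjusted p = 1.41e-08, 2.36e-25 and 6.95e-30), as did 94.4% of V segments, at a median of -2.12. Whether these are falls depends on the denominator. With V joins other than Ighv5-1, Ighv5-2 and Ighv2-2 as library size, Ighv5-4 was 1.97 higher than WT in CBE12mut and 1.08 higher in CBE1mut, Ighv2-3 was 0.76 higher in CBE12mut and level in CBE1mut (-0.08, adjusted p = 0.811), and the fall of Ighv5-6 in CBE12mut no longer passed (-0.30, adjusted p = 0.488). The 3 left-out segments took 17.4% of V joins in WT, 90.1% in CBE12mut and 78.5% in CBE1mut. Among the V joins past them, the 3 members together were 9.69% ± 1.10 in WT, 23.5% ± 1.07 in CBE12mut and 13.0% ± 0.752 in CBE1mut (SD, n = 3).

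CBE1inv behaved otherwise in this measure. Its members fell per V join by 1.08, 1.57 and 1.73 (adjusted p = 1.61e-10, 1.16e-16 and 2.48e-15), where 44.1% of V segments fell and the median was -0.65. Among V joins past the 3 nearest segments they took 5.90% ± 0.231, below all WT libraries, and Ighv2-3 and Ighv5-6 stayed below WT with that denominator, while Ighv5-4 did not pass (-0.41, adjusted p = 0.0852). Set against CBE1mut, Ighv2-3 was 0.45 higher (adjusted p = 0.0152) and Ighv5-6 1.22 higher (adjusted p = 1.3e-06) per V join, where 87.4% of V segments were higher, and Ighv5-4 differed by -0.21 (adjusted p = 0.164). With V joins past the 3 nearest segments as the size, Ighv2-3 turned to a loss (-0.83) and Ighv5-6 was near level (-0.08, adjusted p = 0.958). The Ighv2-3 gain did not pass without CBE1mut replicate 3 (adjusted p = 0.0535) or CBE1inv replicate 3 (adjusted p = 0.0522).

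In CBE2mut all 3 members rose per V join, by 0.85 for Ighv5-4, 0.51 for Ighv2-3 and 0.46 for Ighv5-6 (adjusted p = 1.85e-06, 0.0117 and 0.0398), where 5.59% of V segments rose and the median V was 0.72 lower. The Ighv2-3 rise did not pass without WT replicate 1 (adjusted p = 0.0708) or CBE2mut replicate 3 (adjusted p = 0.108). That of Ighv5-6 did not pass without any 1 of WT replicates 1, 2 and 3 or CBE2mut replicates 2 and 3 (adjusted p = 0.0578 to 0.441). In CBE2inv no member was called per V join (0.42, 0.03 and 0.08, with adjusted p = 0.138, 0.957 and 0.916 and unadjusted p of 0.00803, 0.886 and 0.690), where 0.699% of V segments were. The limma trend fit called none of them either. Between CBE12mut and CBE1mut no member was called per V join (-0.23, -0.30 and -0.41, with adjusted p = 0.143, 0.130 and 0.143 and unadjusted p of 0.117, 0.105 and 0.117), against 70.6% of V segments. The Ighv5-6 difference passed without CBE1mut replicate 2 (-0.66, adjusted p = 0.0334). Between CBE12mut and CBE2mut all 3 fell (-1.95, -2.83 and -3.83), as did 92.3% of V segments. Past the 3 nearest segments Ighv5-4 turned to 0.74 higher. Between CBE2inv and CBE2mut no member was called (-0.43, -0.48 and -0.38, with adjusted p = 0.060, 0.0674 and 0.187 and unadjusted p of 0.00864, 0.0104 and 0.0733), against 13.3% of V segments. Without CBE2mut replicate 1 all 3 passed (-0.60, -0.61 and -0.68), and without CBE2inv replicate 1 Ighv5-4 (-0.53) and Ighv2-3 (-0.55) did.

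The wider lists around the members were fixed by position and family and hold the members themselves. In CBE12mut 3 of the 10 V segments closest to D that passed the filter rose per junction and 6 fell, at a median of -0.99 against -2.04 over all segments, and in CBE2mut 8 rose and 0 fell, at a median of 1.09 against -0.35. In CBE1inv the same list had 3 rises and 3 falls, and those 3 falls were the members. Of 19 Ighv5 segments tested, 2 rose and 16 fell in CBE12mut, where 87.4% of all segments fell, 2 rose and 2 fell in CBE1inv, and 6 rose and 0 fell in CBE2mut. Of 17 Ighv2 segments, 1 rose and 16 fell in CBE12mut, 1 rose and 2 fell in CBE1inv, and 2 rose and 0 fell in CBE2mut. The falls in CBE12mut are near that background. Over all segments 6.59% fell in CBE1inv and 5.39% rose in CBE2mut. Scaled to the median segment, directions in CBE12mut turn for part of these lists, as given for the members.

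How alike the members varied over the 18 bone marrow libraries differed by pair. By Spearman correlation of log2(junctions per 100000 + 1) over these libraries, a description over libraries that share genotypes, the segments most like Ighv5-4 among 142 other V segments were Ighv2-3 (rho 0.82), Ighv5-9 (0.651) and Ighv5-6 (0.567), against a median of -0.002 over the 142. Ighv2-3 and Ighv5-6 had a rho of 0.794. Those most like Ighv2-3 were Ighv5-9 (0.889), Ighv5-4 (0.82) and Ighv5-12 (0.80), against a median of 0.313. Ighv5-6 was most like Ighv5-12 (0.915), and Ighv5-4 was at rank 48 for it, although both segments share signal and most coding bases. The other segments closest to Ighv5-6 have no name here, with rho 0.868 and 0.802.

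In untreated v-Abl cells the members were rarer per junction and a larger part of the V joins than in bone marrow, values that stand side by side without a test because strain, cell type and alignment target all differ. Untreated WT cells made few V joins, 1.89% of V plus D joins, or 2.98% with each read sequence counted once. Counted once, Ighv5-4 was at 213 ± 19.2 junctions per 100000 in them (SD, n = 3). With all junctions, Ighv5-4 had 131, 151 and 140 junctions per 100000 (141 ± 9.63, SD, n = 3), Ighv2-3 had 82.6, 113 and 113 (103 ± 17.4) and Ighv5-6 had 64.6, 51.9 and 55.1 (57.2 ± 6.63). As in WT bone marrow the order was Ighv5-4, Ighv2-3, Ighv5-6 in every library, and they took ranks 3, 4 and 5 of 131 V segments. Together they were 16.1% ± 0.769 of V joins, and 47.0% ± 3.27 of V joins past the 3 nearest segments, which themselves took 65.7%.

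With IAA and doxycycline the V joins increased and the members became a small part of them. In treated WT cells Ighv5-4 had 54.9, 102 and 79.5 junctions per 100000 (78.9 ± 23.7, SD, n = 3), Ighv2-3 had 101, 137 and 6.91 (81.7 ± 67.3) and Ighv5-6 had 18.3, 83.1 and 69.1 (56.8 ± 34.1). These rest on few reads, 12, 32 and 23 junctions for Ighv5-4, 22, 43 and 2 for Ighv2-3 and 4, 26 and 20 for Ighv5-6. The V share of V plus D joins was 9.24% in treated WT cells, and the members took ranks 33, 32 and 46 of 131. In 3CBEdel cells treated Ighv5-4 had 118, 101 and 114 (111 ± 8.7), Ighv2-3 113, 57.7 and 106 (92.4 ± 30.2) and Ighv5-6 22.6, 33.7 and 75.9 (44.1 ± 28.1). Ighv5-4 was below all untreated libraries of its genotype in all 6 treated libraries, while treated and untreated Ighv2-3 overlapped in both genotypes, though not in 3CBEdel with each read sequence counted once.

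Per junction, Ighv5-4 fell by 0.80 in treated WT cells (SE 0.349, adjusted p = 0.0434, limma voom over 81 segments), where 4.94% of segments fell, 64 rose and the median segment was 5.03 higher. This call did not hold without WT untreated replicate 2 (adjusted p = 0.0670), or without WT treated replicate 1, 2 or 3 (adjusted p = 0.117, 0.0649 and 0.0957). It was also lost with the run code as a block (0.0688), with a replicate block (0.0747), with the 2 groups alone (0.0541) and with joins inside the segment only (0.0515, all adjusted p). The v-Abl libraries carry 3 run codes: 1 for replicate 1 of both WT groups, 1 for replicates 2 and 3 of WT and 1 and 2 of 3CBEdel, and 1 for replicate 3 of 3CBEdel. Without WT treated replicate 2, Ighv2-3 passed instead (-2.01, adjusted p = 0.0369). With all libraries Ighv2-3 (-1.08, adjusted p = 0.136) and Ighv5-6 (-0.08, adjusted p = 0.881) did not pass, though Ighv2-3 did with each read sequence counted once (-1.56, adjusted p = 0.0328). Scaled by the median ratio over segments with joins in every library, all 3 members fell, by 2.93, 2.99 and 2.21. In 3CBEdel cells 77.8% of segments were called in either direction and none of the members was (-0.59, -0.08 and -1.28, with adjusted p = 0.134, 0.926 and 0.0655 and unadjusted p of 0.112, 0.903 and 0.0534), while the limma trend fit called Ighv5-6 (-1.24, adjusted p = 0.0449). With each read sequence counted once Ighv5-4 (-0.81, adjusted p = 0.0339) and Ighv5-6 (-1.43, adjusted p = 0.0216) passed.

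As a share of V joins all 3 members fell with treatment in both genotypes. In WT cells Ighv5-4 went from 7.55% ± 0.547 to 0.869% ± 0.257 of V joins, Ighv2-3 from 5.48% ± 0.586 to 0.900% ± 0.740 and Ighv5-6 from 3.09% ± 0.604 to 0.626% ± 0.374 (SD, n = 3). No treated library overlapped an untreated one. The log2 falls were 3.06 (SE 0.36, adjusted p = 7.4e-07), 3.36 (SE 0.628, adjusted p = 8.45e-05) and 2.34 (SE 0.516, adjusted p = 0.0004), where 13% of 69 V segments fell and the median V was 3.08 higher. In 3CBEdel cells Ighv5-4 went from 9.45% ± 0.634 to 1.72% ± 0.271, Ighv2-3 from 5.22% ± 0.384 to 1.42% ± 0.495 and Ighv5-6 from 5.19% ± 0.274 to 0.643% ± 0.310. Those falls were 2.44, 1.91 and 3.08 (adjusted p = 2.7e-05, 0.00804 and 0.000516), where 14.5% of V segments fell and the median V was 2.55 higher. The Ighv2-3 fall in 3CBEdel cells did not pass without 3CBEdel treated replicate 2 (-1.62, adjusted p = 0.0626) or by limma trend (adjusted p = 0.0558). In each genotype 9 of the 10 V segments closest to D fell per V join and 0 rose.

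**Figure D3:**
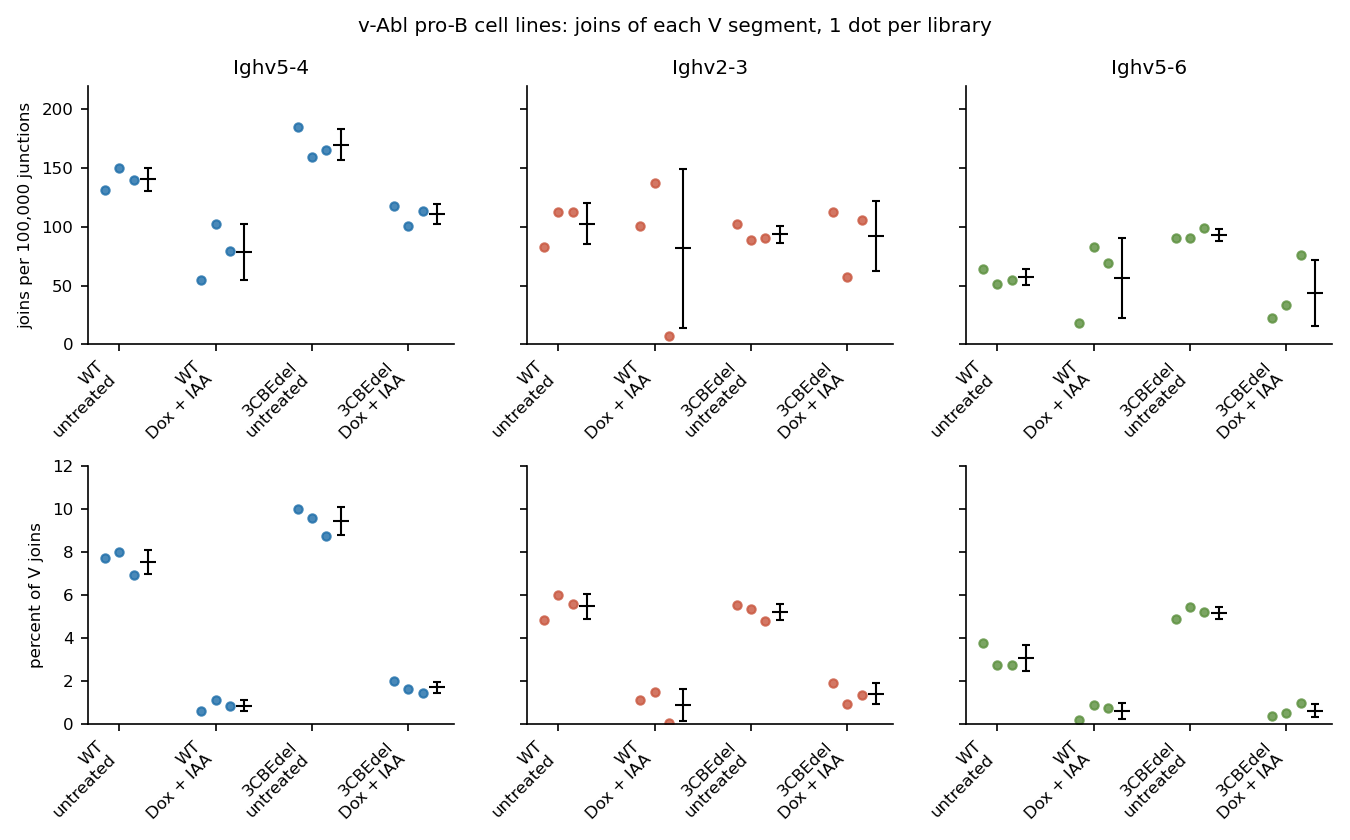
Junctions per 100000 and percent of V joins of Ighv5-4, Ighv2-3 and Ighv5-6 in the 12 v-Abl libraries, with 1 point per library and the mean and SD of each group. Per junction treated Ighv5-4 lies below untreated, with wide spread in treated Ighv2-3 and Ighv5-6, and as a percent of V joins every treated library lies below every untreated one.

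The 3IghCBEs deletion moved no member past the threshold. Untreated 3CBEdel cells had 185, 160 and 165 junctions per 100000 of Ighv5-4 (170 ± 13.3, SD, n = 3), 102, 89.0 and 90.4 of Ighv2-3 (93.9 ± 7.31) and 90.5, 90.5 and 98.9 of Ighv5-6 (93.3 ± 4.83). Every 3CBEdel library was above every WT library for Ighv5-4 and for Ighv5-6, and Ighv2-3 overlapped. With each read sequence counted once Ighv5-4 overlapped too (284, 251 and 224 against 199.7, 235 and 204). In the fit the differences were 0.28 for Ighv5-4 (SE 0.173, adjusted p = 0.440), -0.12 for Ighv2-3 (SE 0.333, adjusted p = 0.873) and 0.70 for Ighv5-6 (SE 0.277, adjusted p = 0.219), with unadjusted p of 0.130, 0.722 and 0.0221, and 2.47% of segments were called in either direction. With the 2 untreated groups fitted alone Ighv5-6 passed (adjusted p = 0.00674). Per V join the values were 0.36 (adjusted p = 0.209), -0.06 (adjusted p = 0.937) and 0.78 (adjusted p = 0.130), with unadjusted p of 0.0276, 0.833 and 0.00566 and 2.9% of V segments called. With these groups alone Ighv5-4 (adjusted p = 0.0125) and Ighv5-6 (adjusted p = 6.13e-05) passed.

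Between the treated genotypes the differences per junction were 0.48, 0.89 and -0.50 (adjusted p = 0.585, 0.585 and 0.706, unadjusted p of 0.317, 0.312 and 0.511), where 1.23% of segments were called. Per V join they were 0.97, 1.39 and 0.05 (adjusted p = 0.738, 0.738 and 0.993, unadjusted p of 0.0628, 0.104 and 0.951), where 0% of V segments were called by limma voom and 0 by limma trend, with 3 of 69 at an unadjusted p under 0.05. The difference of the treatment effects, 3CBEdel minus WT, was 0.20 (SE 0.496, adjusted p = 0.842) for Ighv5-4, 1.01 (SE 0.91, adjusted p = 0.593) for Ighv2-3 and -1.20 (SE 0.793, adjusted p = 0.484) for Ighv5-6 per junction. Per V join it was 0.62, 1.45 and -0.74 (adjusted p = 0.668, 0.494 and 0.780). In both measures 0% of segments were called by limma voom and 0 by limma trend, with 13 of 81 per junction and 8 of 69 per V join at an unadjusted p under 0.05.

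Over the 12 v-Abl libraries Ighv5-4 was most like its neighbours Ighv5-2 (Spearman rho 0.699), Ighv2-2 (0.636) and Ighv5-6 (0.608) among 68 other V segments. Ighv2-3 had no close partner, its highest values being 0.476 with Ighv2-6-8, 0.413 with Ighv2-2 and 0.364 with Ighv2-5. Ighv5-6 was most like Ighv5-4 (0.608), Ighv5-9-1 (0.483) and Ighv5-12 (0.448). The medians over the 68 segments were -0.746 for Ighv5-4, 0.01 for Ighv2-3 and -0.252 for Ighv5-6. Levels of 2 to 43 junctions per member in treated libraries limit all these values.

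The reads also give what each join looked like. An in-frame VDJH join can be translated through JH4, and a productive one also has no stop codon. Pro-B cells need a productive heavy chain to go on to the next stage. In WT bone marrow 35.4% ± 3.63 of Ighv5-4 joins, 41.9% ± 3.84 of Ighv2-3 joins and 37.3% ± 5.47 of Ighv5-6 joins were in frame (SD, n = 3). Ighv5-2, nearer to D, was at 26.2% to 29.4% in the 6 genotypes, and Ighv5-12, farther out, at 52.4% to 61.7% (group means). The members lay between these neighbours in WT. In CBE12mut the in-frame share was 26.6%, 25.1% and 31.3% for Ighv5-4 and 29.3%, 25.4% and 38.9% for Ighv2-3, all below WT. For Ighv5-6 it was 57.5%, 59.8% and 53.1%, above all WT libraries (34.4%, 43.6% and 34.0%). The CBE12mut libraries held only 108, 95 and 183 Ighv5-6 junctions, against 548, 388 and 505 in WT.

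Ighv5-6 was thus the only member above WT in frame in CBE12mut. Its productive share was 24.6% in WT, 51.03% in CBE12mut, 47.0% in CBE1mut and 43.5% in CBE1inv (means of 3), with no overlap with WT in any of the 3. In CBE1inv the in-frame share of Ighv2-3 was 53.7%, 57.0% and 53.9%, above WT (46.2%, 39% and 40.4%), while that of Ighv5-6 ranged from 33.9% to 63.3%. For Ighv5-6 in frame in CBE1inv the exact p was 0.4, and each of the other differences named here has the smallest p of 0.1 that an exact two-sided permutation test of 3 against 3 libraries allows. Over the 150 tests of this family (5 readouts, 3 segments and 10 comparisons) 33 reached it, and the lowest adjusted p was 0.455, so none passed. In CBE2mut replicate 1 and CBE2inv replicate 1 all 3 members had their lowest in-frame shares of the genotype (26.3% to 35.2% and 27.8% to 33.2%).

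**Figure D4:**
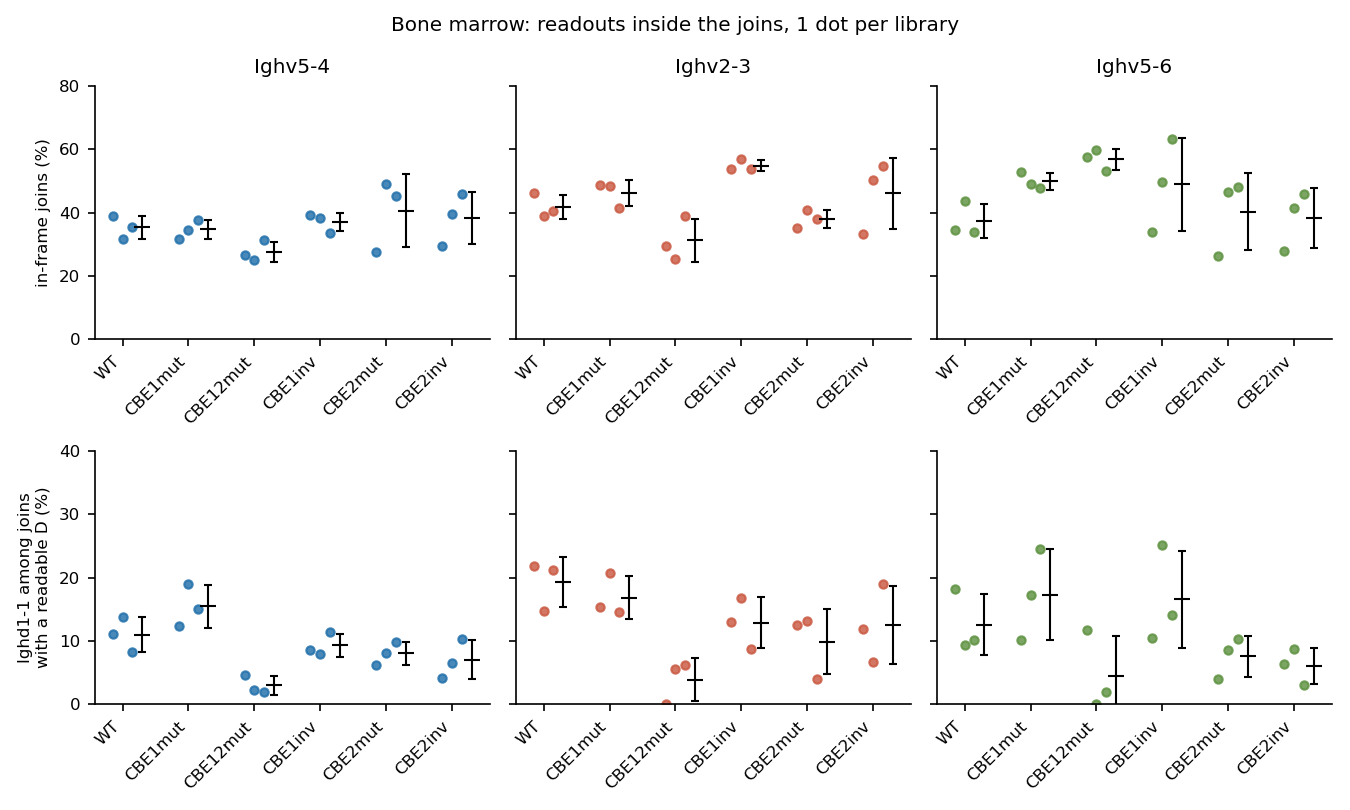
In-frame percent of joins (top) and percent of joins with a readable D whose D is Ighd1-1 (bottom) for Ighv5-4, Ighv2-3 and Ighv5-6 in the 6 bone marrow genotypes, with 1 point per library and the mean and SD, drawn down to 0 at most. Ighv5-6 lies above its WT range in frame in CBE12mut while the other 2 segments lie below theirs, and Ighd1-1 in CBE12mut is lowest by group mean for all 3.

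The D segment inside the join could be read, from a run of at least 8 matching bases, in 50.8% to 72.9% of bone marrow joins of the members (group means). Ighd1-1, which lies at the far end of the main D cluster from JH, made up 11.03% of readable D in Ighv5-4 joins, 19.3% in Ighv2-3 joins and 12.6% in Ighv5-6 joins of WT (means of 3). In CBE12mut it was 2.98%, 3.92% and 4.53%, with 4.71%, 6.17% and 11.7% in the highest library. For the first 2 segments all CBE12mut libraries lay below WT, and for Ighv5-6 the ranges overlapped. The Ighv5-6 value in CBE12mut rests on the readable part of 95 to 183 junctions per library. In CBE1mut the shares were 15.5%, 16.9% and 17.3%, overlapping WT. Between CBE12mut and CBE1mut the Ighv5-4 and Ighv2-3 libraries did not overlap, at the smallest exact p of 0.1. Untreated v-Abl joins held Ighd1-1 at 49.2%, 49.8% and 48.7% in WT and 54.04%, 49.1% and 51.6% in 3CBEdel. The D segments searched differ between the alignment targets, 25 in bone marrow and 21 in mm9. A further D of the bone marrow set had Ighd1-1 as its best match in mm9 (79.06% identity) and was counted apart from Ighd1-1. Runs that fit more than 1 class of D were left out, among them any that fit both this D and Ighd1-1. The bone marrow share of Ighd1-1 therefore leaves out both kinds of join. The v-Abl and bone marrow shares therefore stand side by side without a test.

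Ighv5-4 kept its whole coding end in 56.4% ± 2.498 of WT joins, Ighv5-6 in 42.3% ± 4.55 and Ighv2-3 in 26.3% ± 4.52 (SD, n = 3), and the order was the same in all 6 genotypes by group mean. On average 1.80, 1.83 and 2.13 nucleotides were lost in WT for Ighv5-4, Ighv5-6 and Ighv2-3. CDR3 length of productive joins averaged 11.9 to 13.1 amino acids in the bone marrow groups and 11.6 to 12.1 in untreated v-Abl groups. Inversional joins were at most 1.51% of a member's joins in any bone marrow group mean. Joins of treated v-Abl cells, of which a library had at most 43 per member, were not tested for these readouts.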

How the data were processed

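Per the file headers, each deposited line is 1 read with its bait-to-prey junction, and the columns hold positions, orientations and read sequence, so the authors' tables hold other values than levels and have no count column. Per the submitters' processing notes reads were aligned with Bowtie2 (version not given in the sources used here), and per the labels to mm9 or to a 129 Igh and mm9 hybrid. The deposited duplicate column is 0 on every line.

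Levels were made here by tabulating junctions within 100 bp of a segment (Python 3.11.15, pandas 2.3.3). Bone marrow segments other than the members were named by BLAST 2.17.0 matches to mm9, which left 107 by position. The 3 members there were set by the coordinates of the selection rule. Their best matches were the mm9 segments of the same name, at 96.88% identity for Ighv5-4 and 100% for Ighv2-3 and Ighv5-6. Names of the members in mm9 come from RefSeq synonyms. Because the deposited unit was another than planned, the fits used voom from limma 3.58.1 under R 4.3.3 on the tabulated values (10 junctions in 3 libraries, all junctions or V joins as library size, all groups of a cell type together, no block), with Benjamini-Hochberg adjustment over all segments of a contrast. Single values were compared by exact permutation tests (SciPy 1.17.1). Scripts were tested on simulated data.

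Named are the 3 members in every contrast, their flanking segments from Ighv5-1 to Ighv5-12 and the 3 most alike segments of each. Members and lists were chosen with earlier results of these data known. Alternatives were size factors from the median segment, V joins without Ighv5-2 or without the 3 nearest segments, limma trend, filters, margins of 0 and 500 bp, unique sequences, 2 groups alone, blocks and leaving out each library. The first of these are median-of-ratios factors over the segments with joins in every library.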

Additional observations from a re-analysis of the deposited data

How the results depend on the processing

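Of 1446 refits of single members under alternatives, 37 lost a call, 50 gained one and 24 turned, changing sign with the main or the refitted value called. The other 1335 kept their side of the threshold, and 30 of these changed sign with neither value called. The 24 turns were all seen under another scale, in comparisons with CBE12mut or CBE1mut. With median-of-ratios size factors per junction, Ighv2-3 was 0.98 higher than WT in CBE12mut, 0.06 higher in CBE1mut and 0.92 higher in CBE12mut than in CBE1mut, and Ighv5-4 was 0.67 higher in CBE12mut than in CBE2mut. With median-of-ratios factors per V join, Ighv5-4 and Ighv2-3 were 2.20 and 0.97 higher than WT in CBE12mut, 1.19 and 0.031 higher in CBE1mut, and 1.01 and 0.94 higher in CBE12mut than in CBE1mut. Ighv2-3 and Ighv5-6 then differed by -1.001 and -0.26 between CBE1inv and CBE1mut, and Ighv5-4 by 0.64 between CBE12mut and CBE2mut. With V joins other than Ighv5-2 as the size, Ighv5-4 was 0.73 (CBE12mut) and 0.50 (CBE1mut) higher than WT and Ighv2-3 differed by -0.37 between CBE1inv and CBE1mut. With V joins other than Ighv5-1, Ighv5-2 and Ighv2-2, Ighv5-4 was 1.97 (CBE12mut) and 1.08 (CBE1mut) and Ighv2-3 0.76 (CBE12mut) higher than WT. Under the same size Ighv2-3 and Ighv5-6 differed by -0.83 and -0.075 between CBE1inv and CBE1mut, Ighv5-4 and Ighv2-3 by 0.90 and 0.83 between CBE12mut and CBE1mut, and Ighv5-4 by 0.74 between CBE12mut and CBE2mut. The summed share of the members, with the same 3 segments left out of V joins, changed sign in 6 of 117 recomputed differences: CBE12mut minus WT was 13.8 percentage points, CBE1mut minus WT 3.30, CBE1inv minus CBE1mut -7.09, CBE12mut minus CBE1mut 10.5, CBE12mut minus CBE2mut 2.66 and untreated 3CBEdel minus WT -8.19. The cause of these turns was not tested.

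The number of the 3 members called moved by more than 1.5 times the reported number in these cases, and changes between 2 and 3 are not listed. With median-of-ratios factors per junction it was 1 for CBE1mut over WT, 0 for CBE2inv over WT, 2 for CBE1inv over CBE1mut, 2 for CBE12mut over CBE1mut, 3 for CBE2inv over CBE2mut and 3 for treatment in each v-Abl genotype. Per V join it was 2 for CBE12mut over CBE1mut and 3 for CBE2inv over CBE2mut. Under limma trend it was 1 per junction and 2 per V join for CBE2inv over CBE2mut, and 1 per junction for treated 3CBEdel. With repeated read sequences counted once, CBE1inv over CBE1mut and treatment in each v-Abl genotype had 2 per junction. With 2 groups fitted alone it was 2 for CBE1inv over CBE1mut per junction, 1 for CBE2mut over WT and 2 for CBE12mut over CBE1mut per V join, and for untreated 3CBEdel over WT 1 per junction and 2 per V join. With V joins other than Ighv5-2 it was 1 for CBE1inv over CBE1mut and 2 for CBE2inv over CBE2mut, and with the 3 nearest segments left out 2 for CBE12mut over CBE1mut and 2 for CBE2inv over CBE2mut. At 0 bp it was 1 for CBE12mut over CBE1mut per V join, and with a filter of 30 junctions 1 for untreated 3CBEdel over WT per V join. For treated WT per junction it was 0 at 0 bp, with 2 groups alone and with the run code as a block. The cause of these changes was not tested.

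Same-numbered libraries did not deviate together in all 3 pairs of any comparison, so the replicate block is given here only: 83 of 84 results of single members kept their call, the calls were 38 against 39, and treated WT per junction went from 1 member called to 0. Leaving out 1 library at a time kept 515 of 540 results, 15 lost and 10 gained a call and 0 turned. By the same measure, the number of members called ranged from 1 to 2 for CBE1inv over CBE1mut and from 0 to 1 for CBE2inv over CBE2mut per junction. Per V join it ranged from 1 to 3 for CBE2mut over WT, from 1 to 2 for CBE1inv over CBE1mut, from 0 to 1 for CBE12mut over CBE1mut and from 0 to 3 for CBE2inv over CBE2mut, and for treated WT per junction from 0 to 1. Of 1080 recomputed readout differences, 0 of those at the smallest exact p changed sign. Depth limits the treated v-Abl libraries most, at 2 to 43 junctions per member, and intervals of such small numbers cover counting error only.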
